A study of Aspergillus nidulans with 7 samples.

Results

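The comparison set the 30 h library against the 24 h library of a time course of conidiation, the making of asexual spores, in the filamentous fungus Aspergillus nidulans. These are 2 of the 7 mRNA sequencing libraries, chosen by the time on their labels. Both came from the wild-type strain FGSC A4, grown as an aerated submerged culture in minimal medium, collected on filter paper and exposed to air on wet filters under constant light, for 30 h in one group and for 24 h in the other, with no other treatment named. The labels place conidiophores that carry chains of conidia between 24 and 48 h. Each time has 1 library although filters were collected in duplicate, with pooling not given in the sources used here. The difference between 30 and 24 h therefore has no replicate check and no p-value. A whole filter holds submerged-grown mycelium, aerial hyphae, conidiophores and spores together, and fewer cells of a type and less RNA per cell cannot be told apart.

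A conidiophore is a stalk with a swollen vesicle that buds metulae and then phialides, and each phialide divides again and again to push out a chain of conidia. The zinc finger factor BrlA starts the structure, AbaA acts downstream of it in phialides, and WetA is needed for the maturing of the spore wall. Young conidia gain a hydrophobic rodlet layer, a green wall pigment and a store of trehalose.

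The table gave 9899347 counts at 30 h, against 5095517 counts at 24 h. Levels are CPM, counts brought to a common library size with TMM factors, and 1 count stood for 0.077 CPM at 30 h, against 0.161 CPM at 24 h. A level of 10 CPM thus rested on 130 counts at 30 h and on 62 counts at 24 h. Of 10639 listed genes, 7433 reached 10 CPM in at least 1 of these libraries, and all counts below are over these. Every ratio is 30 h over 24 h on the TMM scale, and every interval is an exact 95% interval from the counts of both libraries that covers counting error only.

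Over the step, 195 genes were at least 2-fold higher at 30 h (2.62% of the genes at that level) and 217 were at least 2-fold lower (2.92%). A 4-fold difference was reached by 30 genes upward (0.404%) and by 43 downward (0.579%). The median log2 ratio over all genes was -0.02. Higher genes made up 47.3% of those past 2-fold on the TMM scale and 60.3% with library totals alone, which moved all ratios by 0.11 log2 units. By the same rule the earlier steps of 6 h gave 17.0% higher and 21.0% lower (6 h against 0 h), 7.0% and 2.46% (12 h against 6 h), and 2.92% and 3.38% (18 h against 12 h). At the step just before, 2.53% of genes were higher and 1.94% lower at 24 h against 18 h. At 48 h against 30 h, a longer step, the shares were 7.54% higher and 10.4% lower. The steps on either side share a library with the comparison of 30 h and 24 h, so only their shares are given.

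**Figure D1:**
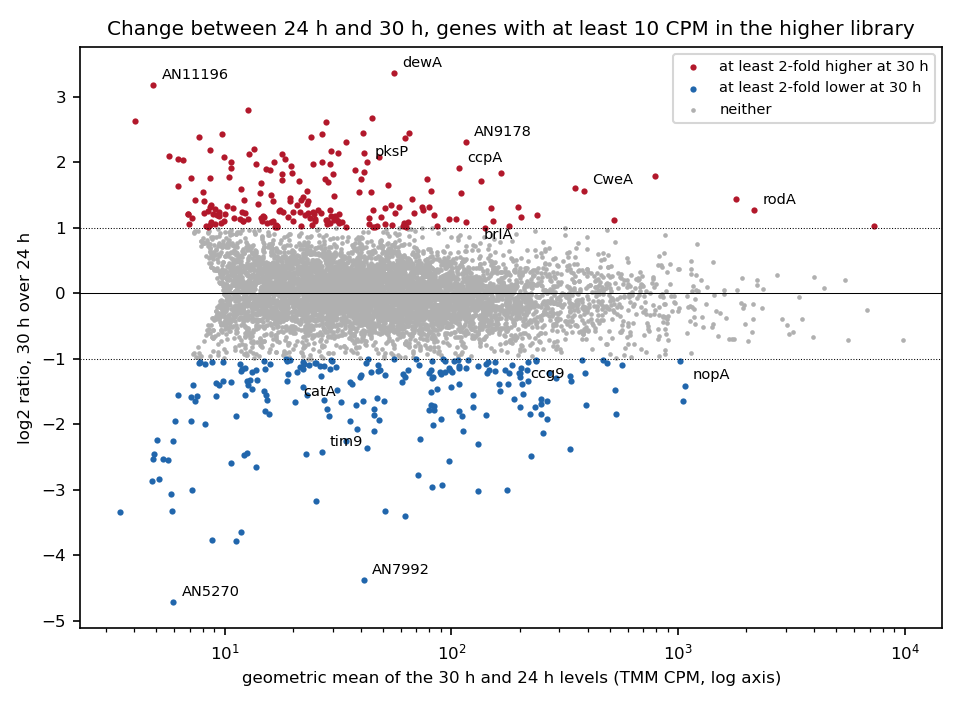
Log2 ratio of TMM CPM, 30 h over 24 h, against the geometric mean of both levels for the 7433 genes that reached 10 CPM in either library. Dotted lines mark a 2-fold difference. The 195 red genes lie above it with dewA at the top, and the 217 blue genes lie below it with AN5270 at the bottom.

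The labelled stage was checked against marker genes. Of the conidiophore and conidium markers, 6 of 9 were at least 2-fold higher at 30 h, against 2.62% of all genes, and 0 were lower. All of these markers are counted again below, in the regulator, spore wall or pigment lists. None was at 0, and their summed level was 4237 CPM at 30 h, against 1841 CPM at 24 h. Most of that sum was rodA, with 3365 CPM at 30 h, against 1394 CPM at 24 h. Of 3 markers entered for sexual tissue 0 passed 2-fold either way. Their summed level was 34.6 CPM at 30 h, against 35.2 CPM at 24 h. Only the highest of them, at 24.4 CPM at 30 h, against 25.8 CPM at 24 h, reached the level tested. ppgA, at 7.09 CPM at 30 h, against 6.62 CPM at 24 h, and the lowest marker, at 3.16 and 2.74 CPM, did not. Neither could count as past 2-fold, whatever its ratio. The 2 genes entered for submerged mycelium, AN4888 and AN2286, added up to 6051 CPM at 30 h, against 9505 CPM at 24 h, and neither passed 2-fold. The part of a changing cell mixture in the ratios below was not tested.

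Among 7 central regulators 2 were at least 2-fold higher, against 2.62% of all genes, and 0 lower, with a median log2 ratio of 0.43. abaA (contig 7, 134947 to 137438) stood at 26.6 CPM at 30 h from 345 counts, against 10.01 CPM at 24 h from 62 counts, a ratio of 2.66 (interval 2.02 to 3.54). wetA (contig 29, 391554 to 393221) stood at 22.5 CPM at 30 h, against 8.71 CPM at 24 h, a ratio of 2.58 whose interval of 1.93 to 3.52 reaches below 2. At the earlier times neither had reached its 30 h level: abaA stood at 15.4, 8.30, 5.96 and 8.45 CPM at 0, 6, 12 and 18 h, and wetA at 9.09, 4.68, 7.33 and 6.91 CPM. The listed span of AN0621, which runs over most of contig 7, covers abaA. AN0621 itself stood at 19.2 CPM at 30 h, against 20.7 CPM at 24 h, and leaving out all genes whose spans overlap left 1 of the 7 regulators past 2-fold.

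brlA, the earliest of the 3 to act, was at 163 CPM at 30 h, against 98.8 CPM at 24 h, a ratio of 1.65 (1.51 to 1.81), so it did not reach 2-fold in this step. stuA, which encodes a transcription factor of conidiophore shape, had a ratio of 1.35 (1.30 to 1.40), from 946 CPM at 30 h, against 702 CPM at 24 h. The velvet family genes vosA and velB had ratios of 1.32 (1.13 to 1.54) and 1.26 (1.06 to 1.49). medA, a modifier of conidiophore development, stood at 238 CPM at 30 h, against 247 CPM at 24 h, and its interval of 0.906 to 1.03 includes 1. Its log2 ratio was 0.06 with library totals, against -0.05 with TMM factors.

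The spore wall list had the most members past 2-fold upward. Of 11 members 6 were at least 2-fold higher, against 2.62% of all genes, and 0 lower, with a median log2 ratio of 1.27. dewA encodes a hydrophobin of the conidial wall (contig 135, 25966 to 26517) and had 2313 counts at 30 h, against 108 counts at 24 h, or 178 CPM at 30 h, against 17.4 CPM at 24 h, the highest ratio of the comparison at 10.2 (8.43 to 12.5). It had 4.99 CPM at 18 h, 0 at 12 h, and 434 CPM at 48 h. rodA, which forms the rodlets (contig 158, 210847 to 211432), was the more abundant, at 3365 CPM at 30 h, against 1394 CPM at 24 h, a ratio of 2.41 (2.36 to 2.47). Both are hydrophobin genes, and the one with more counts had the smaller ratio.

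cspA, known in Aspergillus fumigatus as a repeat-rich protein of the conidial wall, stood at 76.3 CPM at 30 h, against 15.5 CPM at 24 h, a ratio of 4.93 (3.99 to 6.14). From 0 to 18 h its level had stayed between 8.72 and 10.03 CPM. ccpA, a conidial wall protein gene, stood at 209 CPM at 30 h, against 55.5 CPM at 24 h, a ratio of 3.76 (3.36 to 4.22). CweA was at 660 CPM at 30 h, against 223 CPM at 24 h, a ratio of 2.96 (2.79 to 3.13). These wall protein genes thus lay between dewA and rodA in ratio. AN7539, entered on the list by its identifier, had a ratio of 4.40 (3.55 to 5.51). The other members entered by identifier spread more widely: AN1837 missed 2-fold at 1.98 (1.78 to 2.21), AN0940 had 1.82 (1.47 to 2.27), AN6401 had 1.02 (0.988 to 1.05), and AN5015 was the only member below 1, at 0.797 (0.739 to 0.860). AN6401 had come up earlier, with 112, 560, 874 and 893 CPM at 12, 18, 24 and 30 h. tmpL had a ratio of 1.32 (1.15 to 1.53). AN1837 passed 2-fold under DESeq2 size factors, upper quartile factors and library totals, which gave 7 members higher.

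Genes of the green spore pigment were past 2-fold and those of the brown stalk pigment were not. Of 5 members at the level tested, 3 were at least 2-fold higher, against 2.62% of all genes, and 0 lower, with a median log2 ratio of 1.21. pksP, the polyketide synthase of the spore wall pigment, stood at 84.7 CPM at 30 h, against 21.1 CPM at 24 h, a ratio of 4.01 (3.34 to 4.84), after 11.5 CPM at 18 h. yA, the laccase that turns the yellow pigment green, had 126 CPM at 30 h, against 50.7 CPM at 24 h, a ratio of 2.48 (2.19 to 2.80). ayg1, which acts on the polyketide in Aspergillus fumigatus, had 15.3 CPM at 30 h, against 6.62 CPM at 24 h, and its ratio of 2.32 has an interval of 1.65 to 3.33. The genes of the brown pigment of the conidiophore stalk were nearer to 1: ivoA had a ratio of 1.23 (1.11 to 1.36) and ivoB, a phenol oxidase gene, 1.08 (0.997 to 1.16). Both were already high at 24 h, ivoA at 85.7 CPM and ivoB at 154 CPM. arp1 was below the level tested, at 9 counts at 30 h, against 6 counts at 24 h.

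**Figure D2:**
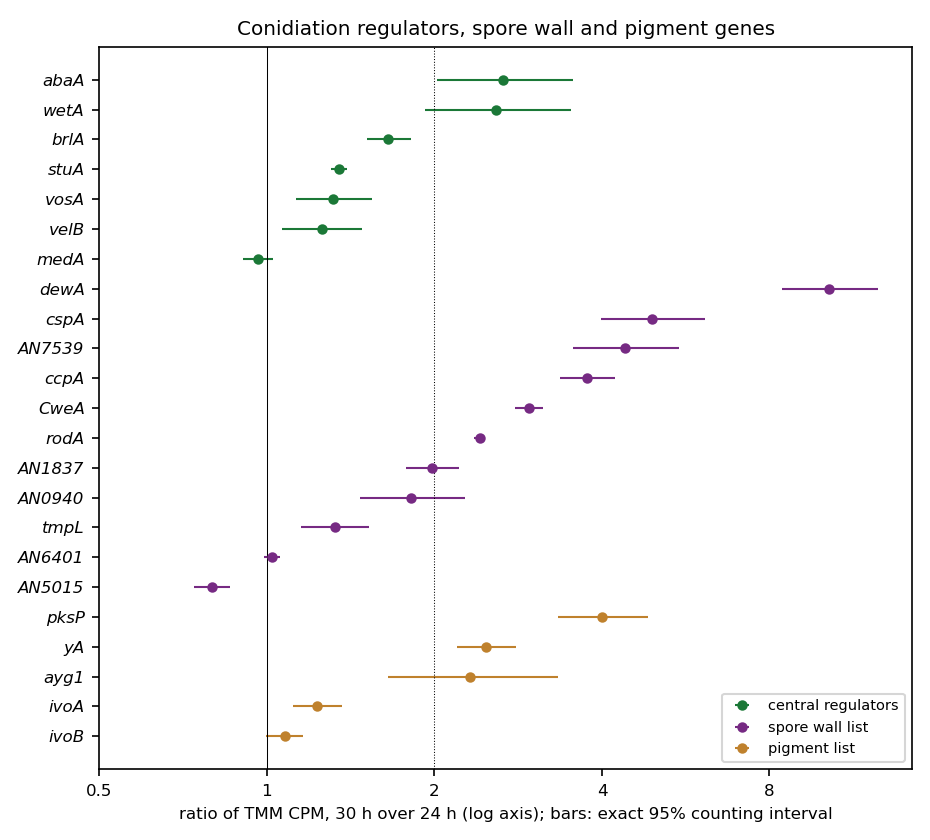
Ratio of TMM CPM, 30 h over 24 h, on a log axis for the central regulators, the spore wall list and the pigment list, with exact 95% counting intervals as bars. dewA stands at 10.2 and pksP at 4.01, while brlA lies at 1.65 and ivoB, AN6401 and medA lie near 1.

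Upstream of the central regulators 1 gene passed 2-fold. Of 19 developmental activators, repressors, G protein and light receptor genes that reached 10 CPM, 0 were higher, against 2.62% of all genes. In this list 1 was lower, against 2.92% of all genes, and the median log2 ratio was -0.04. The lower one, AN0387, stood at 13.5 CPM at 30 h, against 39.7 CPM at 24 h, 2.94-fold lower (2.41 to 3.59), and it too lies inside the listed span of AN0621. AN2059 was just under 2-fold at 1.97 (1.70 to 2.29), and with DESeq2 size factors, upper quartile factors or library totals 1 member of this list was higher. Next in size were the velvet regulator gene veA, with a ratio of 1.52 (1.38 to 1.69), and the phytochrome gene fphA, with 1.43 (1.28 to 1.59).

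Outside development, trehalose and stress genes had the most members past 2-fold downward. Of 18 members 5 were at least 2-fold lower at 30 h, against 2.92% of all genes, and 0 were higher. Their median log2 ratio was -0.23, and 14 had a log2 ratio below 0, against 52.1% of all genes. orlA, a trehalose synthesis gene, stood at 97.3 CPM at 30 h, against 220 CPM at 24 h, 2.26-fold lower (2.09 to 2.45). AN5523, entered on the same list, stood at 118 CPM at 30 h, against 275 CPM at 24 h, 2.34-fold lower (2.18 to 2.50). ccg9, known in Neurospora crassa as a clock-controlled trehalose synthase gene, stood at 127 CPM at 30 h, against 332 CPM at 24 h, 2.62-fold lower (2.46 to 2.80). From 18 h on, orlA and AN5523 were highest at 24 h: they had 105 and 136 CPM at 18 h and 90.9 and 118 CPM at 48 h, close to their 30 h levels. At 0 h both were higher still, at 353 and 597 CPM. ccg9 differed from them, with 264 CPM at 18 h and 50.1 CPM at 48 h. treA, a trehalase gene that acts on the same sugar, had 61.04 CPM at 30 h, against 66.8 CPM at 24 h, and its interval includes 1.

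catA, a catalase gene known from conidia, stood at 11.5 CPM at 30 h, against 36.3 CPM at 24 h, 3.16-fold lower (2.56 to 3.92), after 17.7 CPM at 18 h. sod2, the mitochondrial superoxide dismutase gene, stood at 166 CPM at 30 h, against 337 CPM at 24 h, 2.03-fold lower (1.91 to 2.16), and its interval reaches below 2. With DESeq2 size factors, upper quartile factors or library totals 4 of the 18 were lower, without sod2. The stress kinase gene sakA came next at 1.86-fold lower (1.77 to 1.97). Upward, AN7388 on the same list came as near to 2-fold, with a ratio of 1.84 (1.59 to 2.12), and the catalase gene fgaCat had 1.52 (1.26 to 1.84).

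Chaperone genes were mostly below 1. Of 9 members 8 had a log2 ratio below 0, against 52.1% of all genes, with a median of -0.36. In the same list 1 passed 2-fold downward, against 2.92% of all genes. That one was awh11, at 8.71 CPM at 30 h, against 26.95 CPM at 24 h, 3.09-fold lower (2.42 to 3.96). It is a short transcript of 270 nt, and without genes of up to 500 nt 0 chaperone genes were lower. hsp60, a mitochondrial chaperonin gene, lay just outside at 1.98-fold lower (1.90 to 2.07), with 377 CPM at 30 h, against 747 CPM at 24 h. hsp70 had a ratio of 0.601 (0.589 to 0.614).

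Genes of glycolysis, the citrate cycle and C2 metabolism had a median log2 ratio of -0.57. Of the 24 genes 19 were below 0, against 52.1% of all genes. Only 2 passed 2-fold downward, against 2.92% of all genes. acuF, the phosphoenolpyruvate carboxykinase gene of gluconeogenesis, stood at 263 CPM at 30 h, against 536 CPM at 24 h (2.04-fold lower, 1.94 to 2.14), and AN2099 was 2.05-fold lower (1.99 to 2.11). Both intervals reach below 2, and with upper quartile factors or library totals 0 of the 24 were lower. Ratios below 1 but short of 2-fold were seen for cit1, a citrate synthase gene, at 0.545 (0.529 to 0.563), for pgkA, a phosphoglycerate kinase gene, at 0.688 (0.666 to 0.710), and for gpdA, a glyceraldehyde-3-phosphate dehydrogenase gene, at 0.718 (0.706 to 0.730). The neighbours AN8979 and AN8978 on contig 165 went the other way, the 2 of 24 past 2-fold upward, against 2.62% of all genes. Their ratios were 2.31 (1.86 to 2.89) and 2.32 (1.61 to 3.42), both intervals reaching below 2. With a pseudocount of 2 CPM only AN8979 stayed past 2-fold. AN8979 stood at 37.7 CPM at 30 h, against 16.3 CPM at 24 h.

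No member passed 2-fold in 10 chitin genes, 11 glucan and wall remodelling genes, 3 galactosaminogalactan genes, 16 septin, histone and cell cycle genes, 20 ergosterol genes, 12 nitrogen genes, 19 metal and calcium genes, 10 sexual development genes or 8 ribosomal protein genes. Their median log2 ratios lay between -0.20 for chitin and 0.20 for sexual development. Over all genes 2.62% were higher and 2.92% lower. The alpha-glucan synthase genes ags1 and ags2 had ratios of 1.15 (1.11 to 1.20) and 1.08 (0.981 to 1.18), and csmB, a chitin synthase with a myosin motor, had 0.833 (0.804 to 0.864). In the sterigmatocystin region AN7804 to AN7825 only 3 of 21 genes reached 10 CPM and 0 passed 2-fold.

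Of 18 genes of nuclear migration and the cytoskeleton 1 was lower, against 2.92% of all genes. It was nudG, a dynein light chain gene, with 76 counts at 30 h, against 133 counts at 24 h, 3.66-fold lower (2.74 to 4.92). It is a short transcript of 285 nt inside the span of AN0621. In the autolysis list 1 of 5 was higher, against 2.62% of all genes. That gene, AN5558, stood at 1468 CPM at 30 h, against 426 CPM at 24 h, a ratio of 3.45 (3.31 to 3.59). Its span overlaps that of AN10699, and without overlapping genes 0 of the list were higher. The gene entered with it as AN1414 had a ratio of 1.67 (1.52 to 1.83).

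**Figure D3:**
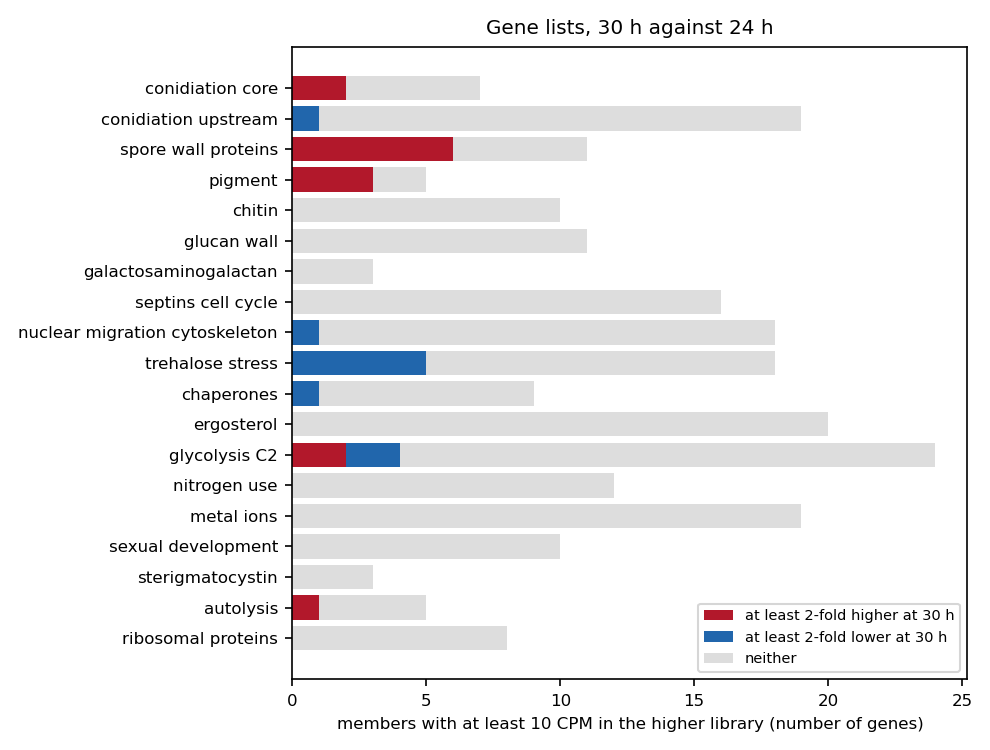
Number of members of each gene list, among those that reached 10 CPM in either library, that were at least 2-fold higher at 30 h (red), at least 2-fold lower (blue) or neither (grey). Red stands out in the spore wall (6 of 11) and pigment (3 of 5) lists and blue in the trehalose and stress list (5 of 18).

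The 12 genes with the largest ratios held dewA and encD among those with a symbol, and 10 that are known here by identifier only. After dewA came AN11196, at 14.6 CPM at 30 h, against 1.61 CPM at 24 h, a ratio of 9.03 (4.80 to 19.1) that rests on 189 counts at 30 h, against 10 counts at 24 h. AN8382 followed at 6.93 (4.78 to 10.4), from 33.5 CPM at 30 h, against 4.84 CPM at 24 h. AN0474, inside the span of AN0621, had 6.36 (5.23 to 7.79), and AN8983 had 6.11 (4.78 to 7.90). The remaining genes, AN9252, AN8375, AN9177, encD, AN8150, AN11059 and AN8654, had ratios from 5.21 to 6.21. Of the genes with a symbol, scw4, a wall glucanase gene in yeast, had 15.9 CPM at 30 h, against 4.68 CPM at 24 h (3.39, 2.29 to 5.19), and the oligopeptide transporter gene optB had 20.5 CPM at 30 h, against 6.78 CPM at 24 h (3.02, 2.18 to 4.29).

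The 12 genes with the smallest ratios were picked for a high 24 h and a low 30 h level, so their 24 h values are a description only. AN5270 stood at 1.16 CPM at 30 h from 15 counts, against 30.3 CPM at 24 h from 188 counts, 26.2-fold lower (15.5 to 47.8). It had been climbing, with 0.64, 6.88 and 9.98 CPM at 6, 12 and 18 h, and had 0.08 CPM, a single count, at 48 h. AN7992 stood at 9.02 CPM at 30 h, against 188 CPM at 24 h, 20.8-fold lower (17.2 to 25.4), between 52.4 CPM at 18 h and 11.4 CPM at 48 h. AN6856, AN9163, AN8959, AN0045, AN11314, AN3848, AN0693, AN10782, AN10678 and AN8339 followed, from 13.8-fold down to 8.09-fold lower. AN8339, the most abundant of them, had 46.01 CPM at 30 h, against 372 CPM at 24 h, with 63.3 CPM at 18 h and 32.3 CPM at 48 h. At 0 h AN7992 and AN8339 had stood higher still, at 543 and 907 CPM. Short transcripts, of 255 to 411 nt, were AN7992, AN6856, AN11314, AN3848 and AN0693.

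Among lower genes with a symbol, tim9, a small subunit of the import machinery of mitochondria, was 5.37-fold lower (4.44 to 6.53), at 11.6 CPM at 30 h, against 62.1 CPM at 24 h, yet stood at 96.8 CPM at 48 h. ish1, known in fission yeast as a stress-induced nuclear envelope gene, was 3.78-fold lower (3.57 to 4.01). erdS, a gene of ergosteryl aspartate synthesis, was 3.25-fold lower (3.10 to 3.41). nopA, an opsin-related gene, stood at 657 CPM at 30 h, against 1746 CPM at 24 h, 2.66-fold lower (2.58 to 2.73). Nearer to 1 were yme2 at 2.31-fold lower (2.09 to 2.55) and tim13 at 2.31-fold lower (1.87 to 2.84).

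**Figure D4:**
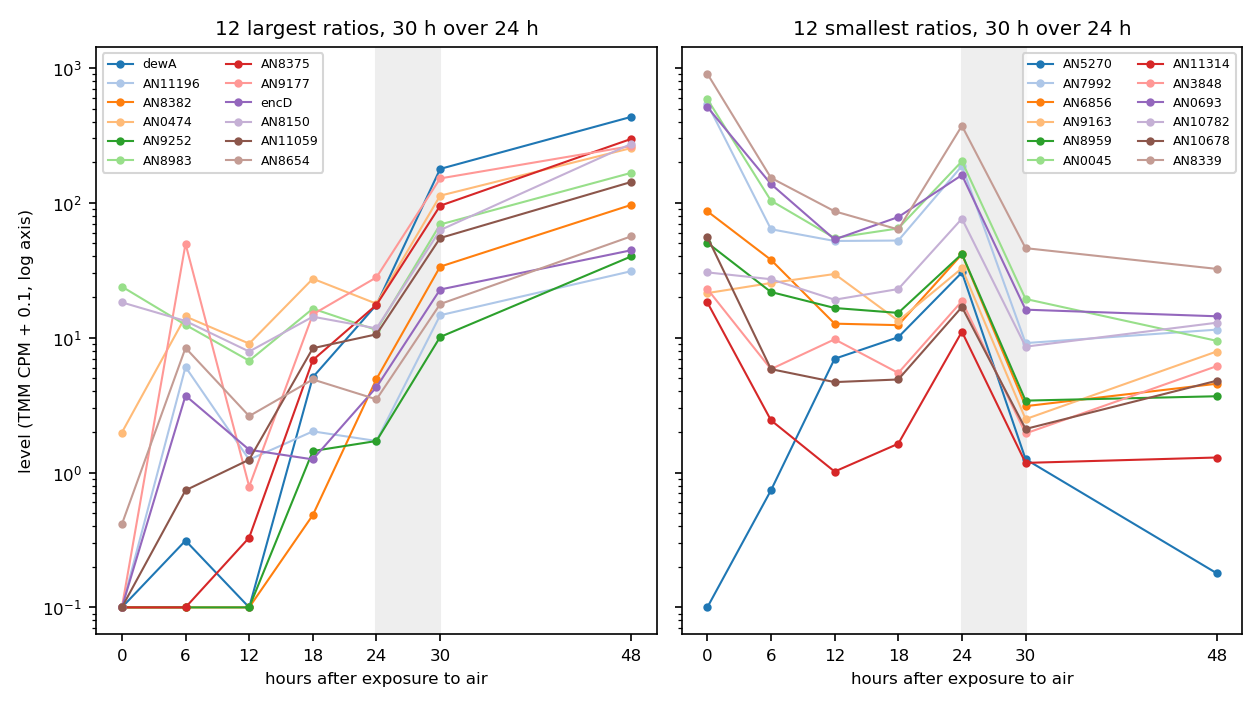
Levels (TMM CPM plus 0.1, log axis) over the 7 times for the 12 genes with the largest ratios of 30 h over 24 h (left) and the 12 with the smallest (right), with the step shaded. On the left the levels at 48 h lie above those at 30 h, as for dewA at 434 and 178 CPM; on the right the genes were picked for levels at 30 h below those at 24 h.

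Abundant genes past 2-fold, picked after their values were seen, were led by AN7217, at 10471 CPM at 30 h, against 5139 CPM at 24 h, a ratio of 2.04 (2.01 to 2.06). AN5245 stood at 2954 CPM at 30 h, against 1093 CPM at 24 h, a ratio of 2.70 (2.63 to 2.78). On the other side AN2488 stood at 594 CPM at 30 h, against 1856 CPM at 24 h, 3.12-fold lower (3.04 to 3.22). All 195 higher genes together took 4.14% of counts at 30 h, against 1.58% at 24 h, and the 217 lower genes took 1.80% at 30 h, against 4.68% at 24 h. The same counts chose both sets, so the directions of these shares were set in advance. AN7217 alone had 135860 of the 9899347 counts at 30 h.

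The libraries of 48 h and 18 h were not used in the step and lie on either side of it. Of the 7621 genes that reached 10 CPM at 48 or 18 h, 14.3% were at least 2-fold higher at 48 h than at 18 h and 17.0% at least 2-fold lower. Of the 7285 of these that also belonged to the 7433, the shares were 12.3% and 17.1%. Of the 195 genes higher at 30 h, 190 reached 10 CPM in one of these libraries, and 168 of them (88.4%) were higher at 48 h than at 18 h while 2 were lower. Their median level was 12.9, 13.9, 37.5 and 96.4 CPM at 18, 24, 30 and 48 h. The genes lower at 30 h were less uniform: of 192 at that level, 95 (49.5%) were lower at 48 h than at 18 h and 18 were higher. Their median level was 53.6, 83.6, 27.3 and 25.1 CPM at 18, 24, 30 and 48 h. The values at 30 and 24 h in both sets of medians are those that chose the genes. Of the 195 higher genes, 67 were below 10 CPM at 24 h and reached the level only at 30 h. Of the 217 lower genes, 59 were below 10 CPM at 30 h and reached it only at 24 h. The shares at 48 h against 18 h are therefore a description only. The same medians over all 7433 genes lay between 43.8 and 45.7 CPM.

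Transcript length moved with the lower genes. The length, taken as the deposited count divided by the deposited reads per nucleotide, had a median of 1389 nt in higher genes, 861 nt in lower genes and 1356 nt in all genes at the level tested. Of 146 genes of up to 300 nt, 31 were lower (21.2%) and 1 was higher, with a median log2 ratio of -0.32. Of 1769 genes over 2000 nt, 1.53% were lower and the median log2 ratio was 0.04. For 48 h against 30 h, which shares the 30 h library, the median of the shortest class was 0.39, against 0.06 for genes over 2000 nt. For 24 h against 18 h, which shares the 24 h library, it was -0.21, against 0.18 for genes over 2000 nt. For 48 h against 18 h, which shares neither library, it was 0.02, against 0.27 for genes over 2000 nt. Of the 18 genes that were lower at 30 h and higher at 48 h than at 18 h, nudG and tim9 among them, 13 had up to 500 nt. That is 72.2%, against 30.0% of all 217 lower genes and 7.67% of all genes at the level tested. Length's part in the result was not tested. Without genes of up to 500 nt 177 genes were higher and 152 lower, and 3 spore wall genes remained past 2-fold since dewA, rodA and AN7539 are short.

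Several of the higher genes lay side by side. Runs of at least 3 neighbouring genes that all passed 2-fold in the same direction numbered 6 upward, with 24 genes, and 2 downward, with 6 genes. The longest had 7 genes on contig 167, from AN9174 (start 15157) to AN9178 (end 32118), with encD, AN11196, AN11189, AN11197 and AN9177 between them. In this run AN9178 stood at 258 CPM at 30 h, against 51.96 CPM at 24 h, a ratio of 4.96 (4.42 to 5.58), and AN9174 had the lowest ratio at 2.35 (1.82 to 3.06). At 6 h AN9177 and AN9178 had stood at 49.6 and 76.6 CPM, and at 12 h at 0.69 and 7.33 CPM.

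Contig 169 held a run of 5 genes from AN9246 (start 29233) to AN9250 (end 37721) and one of 3 genes, AN11217, AN11206 and AN9259 (57351 to 63121). AN9248 had the largest ratio of the first, 4.50 (3.60 to 5.69), from 62.4 CPM at 30 h, against 13.9 CPM at 24 h, and AN9246 the smallest, 2.33 (2.02 to 2.70). AN9259 stood at 57.3 CPM at 30 h, against 14.7 CPM at 24 h, a ratio of 3.90 (3.14 to 4.91). A further run of 3 lay on contig 150, where AN8383 had 139 CPM at 30 h, against 47.1 CPM at 24 h (2.95, 2.61 to 3.35), AN8384 142 CPM at 30 h, against 42.6 CPM at 24 h (3.33, 2.93 to 3.80), and AN8382 the ratio given above. At 18 h the levels in these 3 runs ran from 0.38 CPM for AN8382 to 17.3 CPM for AN8384, and at 12 h none was above 3.67 CPM.

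The other upward runs were AN8653 to AN8655 on contig 155, with ratios from 2.66 to 5.21, and AN11187, AN11172 and AN9161 on contig 166, with ratios from 2.48 to 3.55. Downward, AN5270 was followed on contig 91 by AN10656 (5.78-fold lower, 3.73 to 9.17) and AN10665 (5.86-fold lower, 3.82 to 9.22). The second downward run, AN8639, AN8640 and AN8641 on contig 155, was 3.43-fold, 3.87-fold and 4.29-fold lower. It lies beside catA (172267 to 174550), with AN8638, at 8.71 CPM at 30 h, against 16.1 CPM at 24 h, in between.

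**Figure D5:**
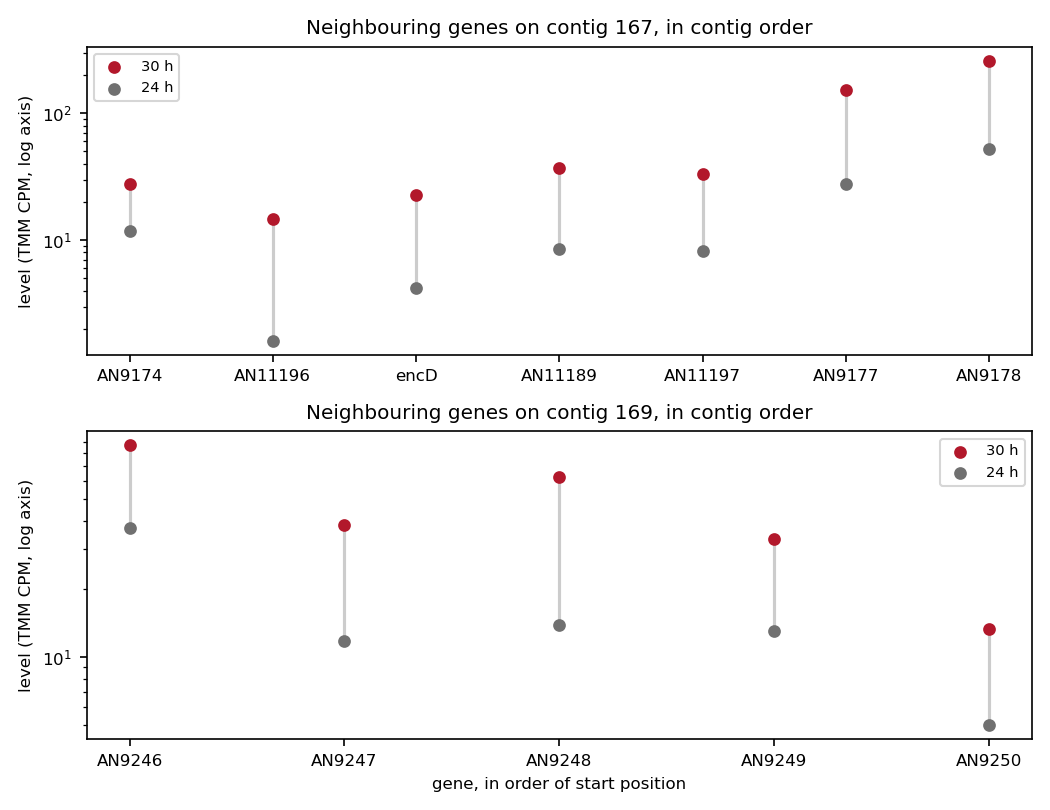
Levels (TMM CPM, log axis) at 30 h (red) and 24 h (grey) for the 7 neighbouring genes on contig 167 and the 5 on contig 169, in order of start position. Each red point lies above its grey one because the runs were picked for it, with ratios from 2.33 for AN9246 to 9.03 for AN11196.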

How the data were processed

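The deposited table lists 10639 genes on 226 contigs for 7 libraries. The authors deposited whole-number counts with no normalization, which were the values analysed. The authors also deposited RPKM values and a signal in reads per nucleotide, per the file headers; the signal was used for transcript lengths only. The submitters' processing notes name CASAVA with no role or version. The following were not given in the sources used here: aligner, build, annotation and strand setting. Overlapping genes and near-identical copies cannot be separated, and contig positions are those of the table. Symbols came from the RefSeq table of assembly ASM1142v1, which held 10455 of the identifiers, 778 with a symbol.

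Libraries were scaled with TMM factors (edgeR 4.0.16, R 4.3.3) over all 7 libraries from genes with at least 1 CPM in 1 library and 15 counts in all. The factors were 1.31 at 30 h and 1.22 at 24 h. A gene passed at a ratio of at least 2 and 10 CPM in either library, with the ratio set against 3 counts where a library had 0. Intervals are Clopper-Pearson limits of the share of counts (SciPy 1.17.1). The rule was checked on simulated counts with planted 4-fold changes and counting error only, so the check does not cover variation between libraries. Named genes were the 12 largest and 12 smallest ratios, 10 each with a symbol, list members past 2-fold, all members of the regulator, spore wall and pigment lists, and runs of at least 3 neighbours. Members and lists were chosen with earlier results of these data known. Of 20 lists 19 had members; the austinol list matched no symbol. Promoter motifs were not analysed here. DESeq2 1.42.0 gave alternative size factors.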

Additional observations from a re-analysis of the deposited data

How the results depend on the processing

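With DESeq2 size factors, upper quartile factors, library totals, TMM over the pair alone and pseudocounts of 0.5 or 2 CPM, the genes past 2-fold ran from 155 to 273 higher and from 180 to 212 lower, against 195 and 217. Filters and folds moved the counts further. A level filter of 1 CPM gave 384 higher and 322 lower, one of 50 CPM 74 higher and 134 lower, and no filter 468 and 627. A fold of 1.5 gave 609 and 688, and a fold of 4 gave 30 and 43. With the whole counting interval past 2, 97 were higher and 148 lower. Leaving out short or overlapping genes was chosen after seeing the data and gave 177 or 179 higher and 152 or 202 lower. Of 412 calls, 368 kept their direction with library totals and 402 with DESeq2 size factors. No named gene past 2-fold changed direction under any other scaling or pseudocount. With upper quartile factors or library totals the calls of acuF and AN2099 were lost, and with those or DESeq2 size factors the call of sod2 was lost. With a pseudocount of 2 CPM that of AN8978 was lost. No paired analysis was possible because each time has 1 library and the labels carry no replicate numbers; for the same reason no library could be left out. A gene at 10 CPM rests on 62 counts at 24 h, so ratios near 2 there have intervals on both sides of it.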

Other observations

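Genes of mitochondrial protein import were looked at after tim9 and tim13, with transcripts of 273 and 327 nt, were seen among the lower genes, so they are given as single values and with no count. The channel gene tom40 (1068 nt) stood at 79.5 CPM at 30 h, against 141 CPM at 24 h, a ratio of 0.563 (counting interval 0.514 to 0.617). The receptor gene tom70 (1911 nt) stood at 104 CPM at 30 h, against 168 CPM at 24 h, a ratio of 0.617 (0.568 to 0.669). sam50 (1551 nt), of the outer membrane assembly complex, had a ratio of 0.544 (0.492 to 0.601). None of these 3 passed 2-fold. Closer to 1 were pam18 (318 nt) at 0.711 (0.610 to 0.828) and tim44 (1545 nt) at 0.767 (0.687 to 0.858), both of the inner membrane import motor. tim21 (603 nt) lay above 1, at 1.22, with an interval of 0.956 to 1.56 that includes 1. The genes were picked by the start of their symbols, which also brought in 2 whose part in protein import was not checked. These were mdm12 (1311 nt), higher at 1.43 (1.20 to 1.71), and tom1 (12069 nt), at 0.839 (0.797 to 0.883).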
